A study of Drosophila melanogaster with 2 samples.

Results

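The heat shock factor gene Hsf and 9 chaperone genes were examined for binding of a GFP fusion of CG34376 in Drosophila melanogaster embryos. The 10 genes, out of 18164 annotated genes on the chromosome arms, were chosen by name with earlier results of the same peak lists known, among them the strong peak at Hsp83. That value is given below as a description and supports nothing. For each gene, every peak summit in the gene body or within 2 kb of an annotated start was collected. This gave 32 distinct candidate summits, of which 13 were in the authors' thresholded list.

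Chromatin was taken from whole embryos of both sexes aged 0 to 24 h, from a transgenic line in which CG34376 carries GFP at its C terminus. The 2 libraries, biological replicates 2 and 3, form 1 group, so conditions could not be compared, and no heat shock treatment is named in the labels. A free-text label calls each library an input control, while the assay title, the antibody field and the separately listed control mark an immunoprecipitation, and both were treated as immunoprecipitated. Each peak list gives an interval, its summit and a signal in the authors' own units, and rank 1 is the strongest signal of a list. The pooled list and each replicate's list hold 30000 candidates, and the thresholded list holds the 7025 strongest pooled candidates, with signals from 163 to 3316 and a median of 252. The signal is the authors' own value for a peak and is used only to describe and rank peaks within a list. Read depth is not used here, and no p-value could be given. In whole embryos, binding in fewer cells and weaker binding per cell cannot be told apart.

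Heat shock proteins are chaperones that bind unfolded proteins and keep them from aggregating. In flies the heat shock factor, encoded by Hsf, binds arrays of inverted GAA units, the heat shock elements, upstream of the inducible genes and drives their transcription on stress. Hsp22, Hsp23, Hsp26, Hsp27 and Hsp67Bc encode small heat shock proteins and Hsp68 a member of the Hsp70 family, and all 6 are grouped here as inducible. Hsf, Hsc70-4 (the main cytosolic Hsp70 cognate), Hsc70-3 (the chaperone of the endoplasmic reticulum known as BiP) and Hsp83 (the cytosolic Hsp90) are expressed without stress and are grouped as constitutive, although Hsp83 is also heat inducible. Expression was not measured here, so the grouping does not tell which members of either class were expressed in these embryos.

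Of the 10 members, 8 had a thresholded summit in their window: 3 of 4 constitutive and 5 of 6 inducible genes. The same 8 had one no farther than 500 bp from a start. Among all genes the share was 37.6% for the wider window and 25.6% for the 500 bp around starts, and among the 13945 protein-coding genes the shares were 41.2% and 30.1%. All 10 members had some pooled candidate that close to a start, and of all genes with such a candidate 48.1% had a thresholded one. The 2 members without were Hsf and Hsp23. Because the members were chosen with these lists known, and because neighbouring genes share summits, the counts were not tested.

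**Figure D1:**
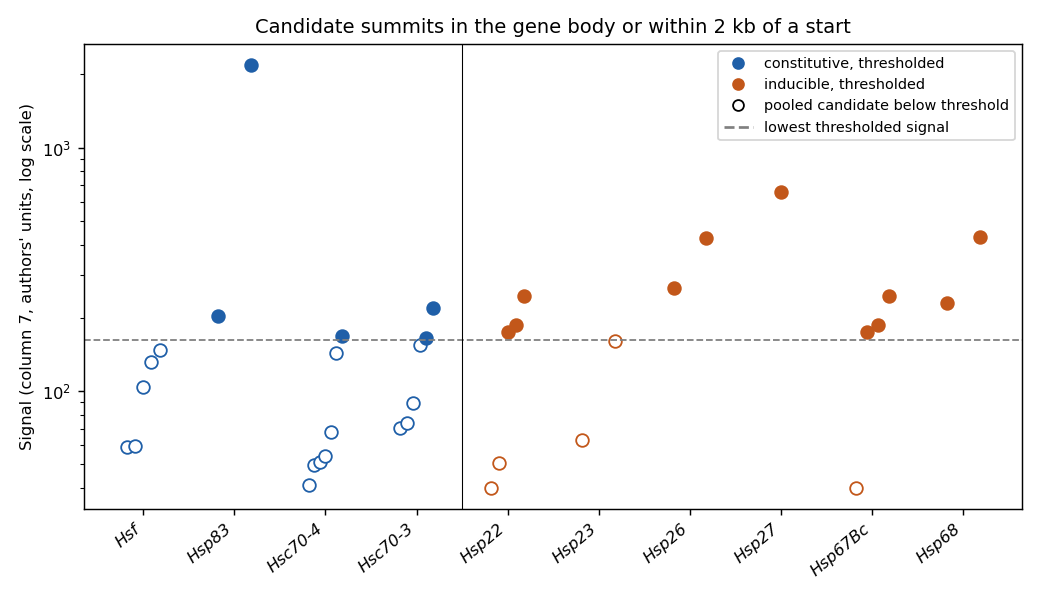
Signal of every pooled candidate summit in the window of each member, on a log axis, with constitutive genes on the left and inducible genes on the right. Filled points are thresholded, open points are candidates below the threshold, and the dashed line is the lowest thresholded signal, 163. Hsp83 stands at 2185, far above the other members, and Hsf and Hsp23 have open points only.

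Among the constitutive genes, Hsp83 carried the strongest peak of the 10 members. Hsp83 (FBgn0001233) spans 3192969 to 3197059 on the plus strand of 3L and has starts at 3192969 and 3193216. Its promoter peak covered 3192818 to 3193346 with a signal of 2185, rank 8 of the pooled list. The replicates placed it at nearly the same base, with rank 8 and a signal of 1180 in replicate 2 and rank 9 and a signal of 990 in replicate 3. The summit, at 3193110, lay between the starts, 106 bp upstream of the second. A weaker thresholded summit, at 3194256, lay 1040 bp downstream of that start, in an intron. It had a signal of 203 and rank 5025, with rank 7477 in replicate 2 and 3689 in replicate 3, so that only replicate 3 had it among its 7025 highest candidates.

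The strong Hsp83 summit lay close to a heat shock element, which is shown here because it is the nearest to the summit. In the 30 bases printed, on build dm6 and in the direction of the gene, capitals mark the match to GAANNTTC, in which N is any base. The match was centred 41.5 bp downstream of the summit and 64.5 bp upstream of the second start.
Hsp83, chr3L:3193137-3193166, plus strand: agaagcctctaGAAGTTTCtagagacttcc

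Hsc70-3 had 2 thresholded summits, each of modest signal. The gene (FBgn0001218) spans 11801696 to 11807117 on the minus strand of X with 4 starts. The stronger summit, at 11806441, had a signal of 219 and rank 4511 and lay 88 bp upstream of the start at 11806353. Its rank was 3635 in replicate 2 and 6562 in replicate 3. The weaker, at 11807622, lay 505 bp upstream of the first start and so just beyond the promoter limit. It had a signal of 165 and rank 6922, close to the end of the thresholded list, and the replicates ranked it far apart, at 5604 in replicate 2 and 23352 in replicate 3. A candidate below the threshold, at 11805477, lay 113 bp upstream of the start at 11805364, with a signal of 154 and rank 7514.

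Hsc70-4 had a thresholded summit of low signal beside a long row of lower candidates. The gene (FBgn0266599) runs from 15242687 to 15246614 on 3R, plus strand, with 6 starts. Its only thresholded summit, at 15242759, lay 72 bp downstream of the first start, with a signal of 169 and rank 6657. The replicates gave rank 6325 in replicate 2 and rank 5270 in replicate 3, where the summit was 152 bp away. The window held 6 further candidates with signals from 41.3 to 144, of which the strongest, at 15243084, had rank 8187. Of these 6, 2 lay in coding exons, a class that held no thresholded summit of any member.

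Hsf had no thresholded summit. The gene (FBgn0001222) spans 18130303 to 18134634 on the minus strand of 2R with its start at 18134634. The candidate nearest to that start, at 18134530, lay 104 bp downstream with a signal of 132 and rank 9125, and its ranks were 9846 in replicate 2 and 7155 in replicate 3. The strongest candidate of the window, with a signal of 147 and rank 7995, lay 942 bp upstream of Hsf and 150 bp downstream of the start of Pcl, a Polycomb group gene. The gene of the factor that controls the heat shock response thus had candidates in both replicates, none of them among either replicate's 7025 highest.

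**Figure D2:**
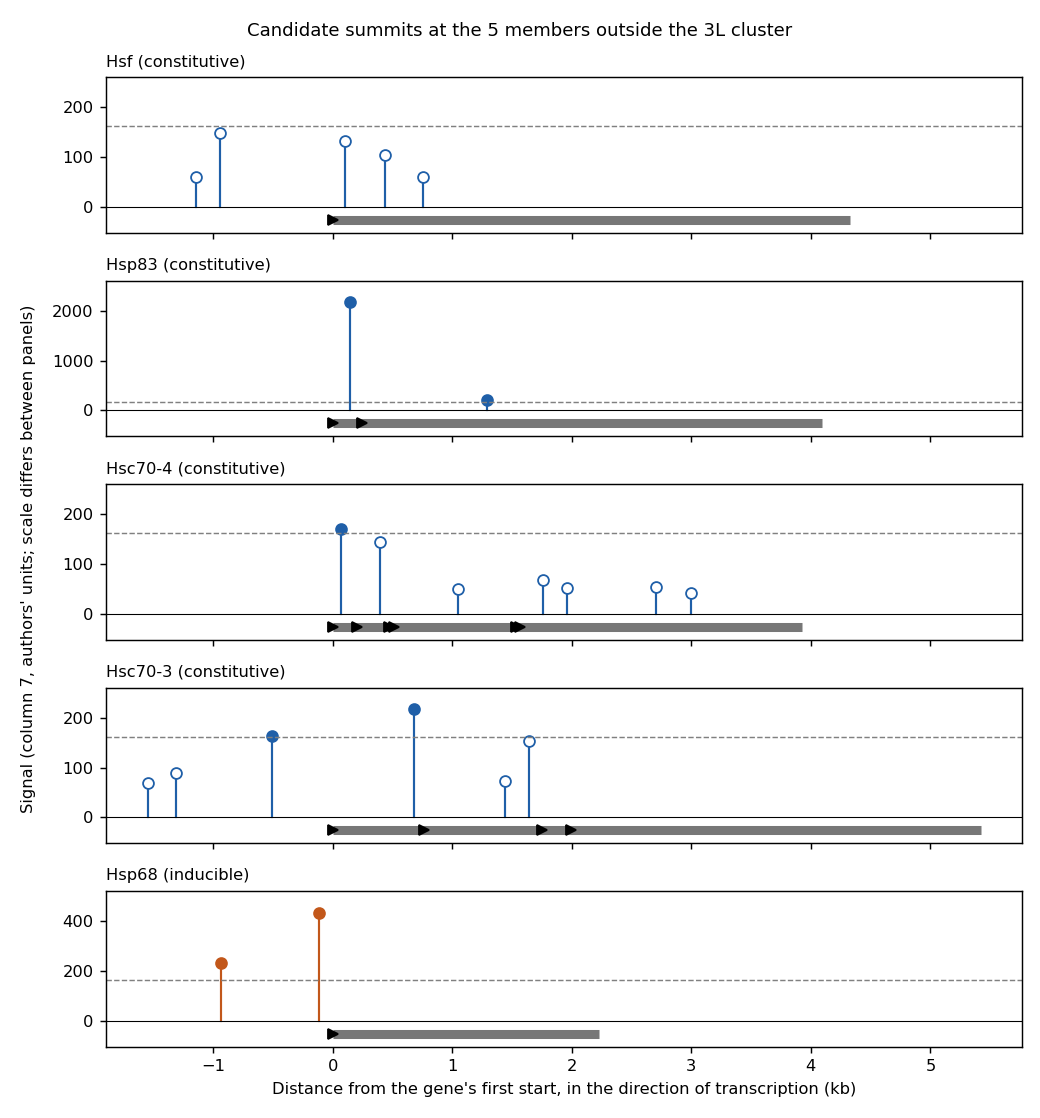
Candidate summits at Hsf, Hsp83, Hsc70-4, Hsc70-3 and Hsp68, plotted by distance in kb from the first start in the direction of transcription, with the signal on a linear axis that differs between panels. Filled points are thresholded, grey bars are the genes, arrowheads are annotated starts and the dashed line is the lowest thresholded signal. The stronger summits of Hsp83 and Hsp68 stand just before a start and their weaker ones lie farther off, while the candidates of Hsc70-4 run along the gene.

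A sequence from each Hsc70 gene, at the stronger thresholded summit of Hsc70-3 and at a candidate of Hsc70-4, is shown to set these genes beside the inducible genes printed further on. In all lines below, capitals mark matches to the heat shock element, searched as TTCNNGAA or GAANNTTC, or to the GAGA element, searched as GAGAG or CTCTC, and each sequence runs in the direction of its gene. The Hsc70-3 window, 100 bp on each side of its stronger summit, holds neither. The window of the Hsc70-4 candidate at 15243084, which was below the threshold, holds 2 heat shock elements. The 2 windows were not chosen alike, and another window of each gene reads the other way. That of the thresholded Hsc70-4 summit holds neither element. That of the Hsc70-3 candidate at 11805477, below the threshold, holds a heat shock element and GAGA elements.
Hsc70-3, chrX:11806341-11806541, minus strand: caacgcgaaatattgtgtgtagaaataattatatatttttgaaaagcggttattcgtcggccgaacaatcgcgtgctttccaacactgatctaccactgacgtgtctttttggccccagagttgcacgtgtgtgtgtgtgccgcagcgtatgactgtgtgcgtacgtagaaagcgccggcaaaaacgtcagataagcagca
Hsc70-4, chr3R:15242984-15243184, plus strand: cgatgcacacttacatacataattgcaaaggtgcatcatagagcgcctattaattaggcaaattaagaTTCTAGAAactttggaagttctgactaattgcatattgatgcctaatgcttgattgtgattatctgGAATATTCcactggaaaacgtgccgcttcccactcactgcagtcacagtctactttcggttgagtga

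Among the inducible genes, Hsp27 had the strongest peak. Hsp27 (FBgn0001226) spans 9384063 to 9385694 on the plus strand of 3L. Its peak covered 9383750 to 9384073 with a signal of 657 and rank 397, and the only summit in its window, at 9383903, lay 160 bp upstream of the start. The ranks were 540 in replicate 2 and 302 in replicate 3. No other candidate of the 30000 fell in the window, so that the peak stood alone.

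Hsp68 and Hsp26 followed with nearly equal signals. Hsp68 (FBgn0001230), on the minus strand of 3R from 24055080 to 24057310, had a summit at 24057421, 111 bp upstream of its start, with a signal of 432 and rank 1138. The ranks were 984 in replicate 2 and 1484 in replicate 3. A further thresholded summit in its window, at 24058241 with a signal of 231 and rank 4098, lay 931 bp upstream of Hsp68 and 46 bp upstream of the start of SMC1, which encodes a cohesin subunit.

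Hsp26 (FBgn0001225) spans 9376418 to 9377427 on the minus strand of 3L and has starts at 9377375 and 9377427. Its thresholded summits, at 9377437 and 9377637, lay 10 and 210 bp upstream of the outer start, with signals of 425 and 265 and ranks of 1176 and 3198. The stronger had rank 1355 in replicate 2 and 1176 in replicate 3, and the weaker had rank 4154 in replicate 2 and 3712 in replicate 3. Both summits were thus placed within 14 bp by each replicate.

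Hsp22 and Hsp67Bc are divergent neighbours and shared all 3 of their thresholded summits. Hsp22 (FBgn0001223) spans 9372931 to 9374964 on the plus strand of 3L with starts at 9372931 and 9373997, and Hsp67Bc (FBgn0001229) spans 9371511 to 9372497 on the minus strand. The strongest shared summit, at 9372790, had a signal of 245 and rank 3698, with rank 3720 in replicate 2 and 3114 in replicate 3. It lay 141 bp upstream of a start of Hsp22 and 293 bp upstream of Hsp67Bc, and nearest, 68 bp downstream, to the start of CG4456, which RefSeq also lists as Hsp67Bb. A summit at 9373588, with a signal of 187 and rank 5753, lay 409 bp upstream of the inner start of Hsp22. The weakest, at 9371108, with a signal of 176 and rank 6309, lay 50 bp upstream of Fdx1, a ferredoxin gene, and had rank 4186 in replicate 2 but 10754 in replicate 3.

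Hsp23 fell just short of the threshold. Hsp23 (FBgn0001224) spans 9381882 to 9382765 on the plus strand of 3L, and its candidate summit at 9381783, 99 bp upstream of the start, had a signal of 161 and rank 7136. The last member summit inside the list, that of Hsc70-3 with a signal of 165 and rank 6922, stood only slightly higher. The replicates differed at Hsp23, with rank 5464 and a signal of 105 in replicate 2, against rank 16933 and a signal of 35.9 in replicate 3 at a summit 96 bp away. With replicate 2 alone Hsp23 was among the genes with a highest candidate within 500 bp of a start, and with replicate 3 alone it was not.

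The small heat shock genes among the members lie in a cluster of 14.2 kb, from the left end of Hsp67Bc at 9371511 to the right end of Hsp27 at 9385694 on 3L. It holds 9 annotated genes, 9 candidate summits and 5 thresholded summits. Summits stood at the starts of Hsp22, Hsp26 and Hsp27, whereas CG4461 and Hsp67Ba, which also encode small heat shock proteins, had no candidate within 500 bp of a start. Hsp23 and asRNA:CR43481, which lie between Hsp26 and Hsp27, each had 1 within 500 bp of a start but below the threshold, with signals of 161 and 62.8. Neighbours in the cluster were thus marked unequally. The summits of 1 gene also fall in the windows of others, so the members of the cluster are not separate observations.

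**Figure D3:**
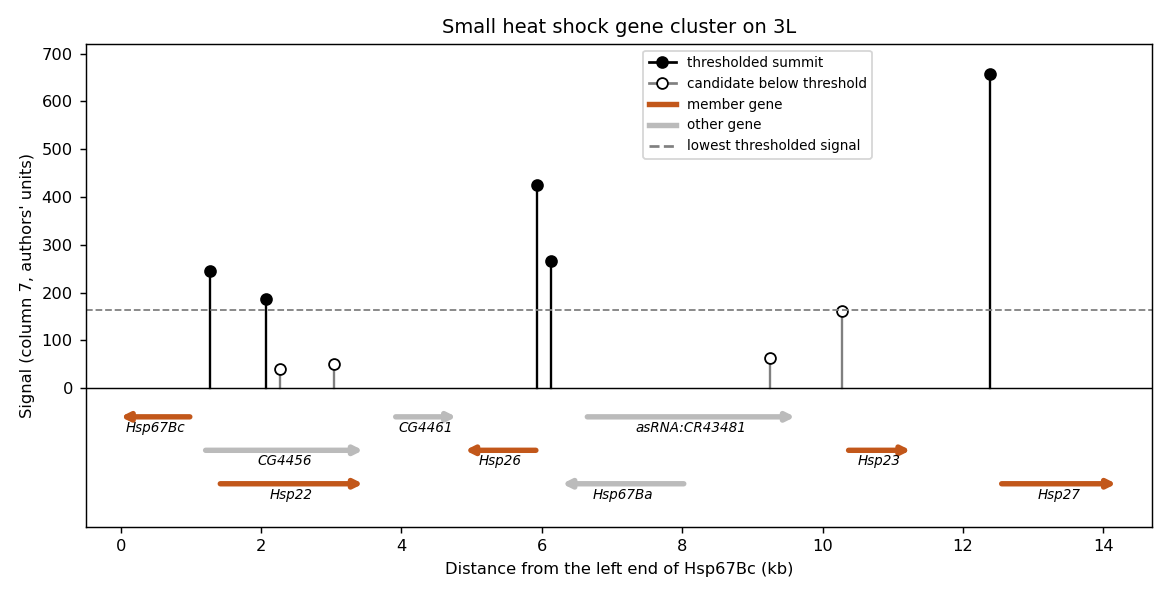
Candidate summits across the small heat shock gene cluster on 3L, plotted by distance in kb from the left end of Hsp67Bc, with the signal in the authors' units. Filled points are thresholded, open points are not, arrows are genes in their direction of transcription, and members are in orange. Hsp27 stands highest at 657, Hsp26 has 2 summits, and no point stands at the start of CG4461 or Hsp67Ba.

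Windows 100 bp on each side of some of the inducible summits are printed because they differ in the elements they hold. Those of the thresholded summits at 9371108, 9372790, 9373588 and 24058241 are not printed and hold no heat shock element. That of Hsp68 has 6 matches to the heat shock element, 4 of them in an overlapping array. That of the weaker Hsp26 summit has 3 heat shock elements among GAGA elements. Of the window of the stronger Hsp26 summit only the bases upstream of the outer start are printed, with GAGA elements, and its heat shock element, centred 16.5 bp downstream of the summit, lies in the transcribed part that is not printed. The Hsp23 window, which was below the threshold, has 2 heat shock elements. The Hsp27 window has no capitals at all.
Hsp68, chr3R:24057321-24057521, minus strand: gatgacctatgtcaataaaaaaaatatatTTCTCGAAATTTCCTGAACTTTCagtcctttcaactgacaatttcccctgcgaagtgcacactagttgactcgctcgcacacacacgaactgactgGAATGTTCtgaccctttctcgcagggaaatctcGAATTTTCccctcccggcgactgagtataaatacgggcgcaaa
Hsp26, stronger summit, chr3L:9377428-9377537, minus strand: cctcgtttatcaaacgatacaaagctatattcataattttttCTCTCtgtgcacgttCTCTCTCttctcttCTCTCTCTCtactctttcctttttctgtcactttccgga
Hsp26, weaker summit, chr3L:9377537-9377737, minus strand: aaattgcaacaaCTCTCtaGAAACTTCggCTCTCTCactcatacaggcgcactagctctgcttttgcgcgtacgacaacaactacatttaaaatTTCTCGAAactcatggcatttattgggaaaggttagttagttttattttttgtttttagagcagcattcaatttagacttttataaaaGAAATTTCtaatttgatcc
Hsp23, chr3L:9381683-9381883, plus strand: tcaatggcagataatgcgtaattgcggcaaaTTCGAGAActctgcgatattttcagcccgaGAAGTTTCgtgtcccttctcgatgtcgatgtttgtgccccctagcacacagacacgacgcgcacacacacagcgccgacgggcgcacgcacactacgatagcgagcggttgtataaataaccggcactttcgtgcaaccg
Hsp27, chr3L:9383803-9384003, plus strand: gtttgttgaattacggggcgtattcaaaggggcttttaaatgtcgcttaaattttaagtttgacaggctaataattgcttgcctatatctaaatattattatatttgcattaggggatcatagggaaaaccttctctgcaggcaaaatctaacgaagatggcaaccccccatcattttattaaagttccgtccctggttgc

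Set side by side, the constitutive and inducible genes differed little in how many had a thresholded summit near a start. The median signal was lower in the constitutive genes, but the sign of this difference depended on the lines kept. Near a start, at 500 bp or less, 75% of the constitutive and 83.3% of the inducible genes had a thresholded summit, a difference of -8.33 percentage points that is less than 1 gene and that turned to 16.7 without Hsf and to 8.33 within 200 bp of a start. Over all members, the median of the strongest candidate in the window was 194 in constitutive genes and 335 in inducible genes, against 178 for the 12479 genes with a candidate in the window. Among the 8 members with a thresholded summit, the medians were 219 in constitutive genes and 425 in inducible genes, a difference of -206. Over all 6823 genes with a thresholded summit in the window this median was 289, above the constitutive and below the inducible value. Hsp22 and Hsp67Bc entered with the same summit, with a signal of 245, which lay nearest to the start of CG4456. The values of the inducible genes are therefore not all separate. The ranges overlapped, because Hsp83 lay above every inducible gene while Hsc70-4 and Hsc70-3 lay below all 5 inducible genes with a thresholded summit. When only the 3512 strongest thresholded lines were kept, Hsp83 was the only constitutive gene left and the difference became 1753. These are small sets of genes chosen with their values known, and the difference was not tested.

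The candidates of the constitutive genes were thresholded about as often as candidates in general, and those of the inducible genes more often. The constitutive windows held 20 distinct candidates, of which 5 (25%) were thresholded, and the windows of the inducible genes held 12, of which 8 (66.7%) were, beside 23.4% of all 30000 pooled candidates. These shares are not like for like, because member windows were drawn around starts and pooled candidates lie anywhere. Counted by gene, 48.1% of all genes with a candidate within 500 bp of a start had a thresholded one there. Of the 8, those nearest to Fdx1, CG4456 and SMC1 lie nearer to the start of a gene that is not a member. The median rank was 12791 in constitutive genes and 4926 in inducible genes. The constitutive genes are also longer, with a median of 4212 bp against 1321 bp in the inducible genes, and have 13 annotated starts against 8 in the inducible genes, so their windows cover more sequence. The difference between the classes, and the part of window length in it, was not tested.

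Most member summits were promoter summits. Of the 13 distinct ones in the thresholded list, 11 lay no farther than 500 bp from a start of some gene, beside 61.2% of all 7025 thresholded summits and 63.1% of the 6818 that lie in the body or within 2 kb of a start of any gene. The member windows were drawn around starts of mostly short genes, which favours this class, so the shares are not like for like. The other two were the Hsp83 intron and the summit 505 bp upstream of Hsc70-3. All 8 inducible and 3 of the 5 constitutive summits were in this class, although the summits nearest to Fdx1, CG4456 and SMC1 lie nearer to the start of a gene that is not a member. On the upstream side of the nearest start lay 10 of the 13, beside 52.1% of those 6818 summits and 61.4% of all thresholded promoter summits.

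Each of the 13 thresholded summits had a summit within 200 bp in both replicates, and 10 of them were among the 7025 highest candidates of both. The same shares over all thresholded summits are not given here, so whether the member summits differ from others in this cannot be told. The exceptions were the Hsp83 intron, below that rank in replicate 2, and the distal Hsc70-3 and Fdx1 summits, below it in replicate 3. At the level of genes, 9 members had such a candidate within 500 bp of a start in replicate 2 and 8 in replicate 3, beside 24.7% of all genes in replicate 2 and 25.7% in replicate 3. The thresholded list was made from the same replicates, so these ranks describe the lists and are not an independent check.

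**Figure D4:**
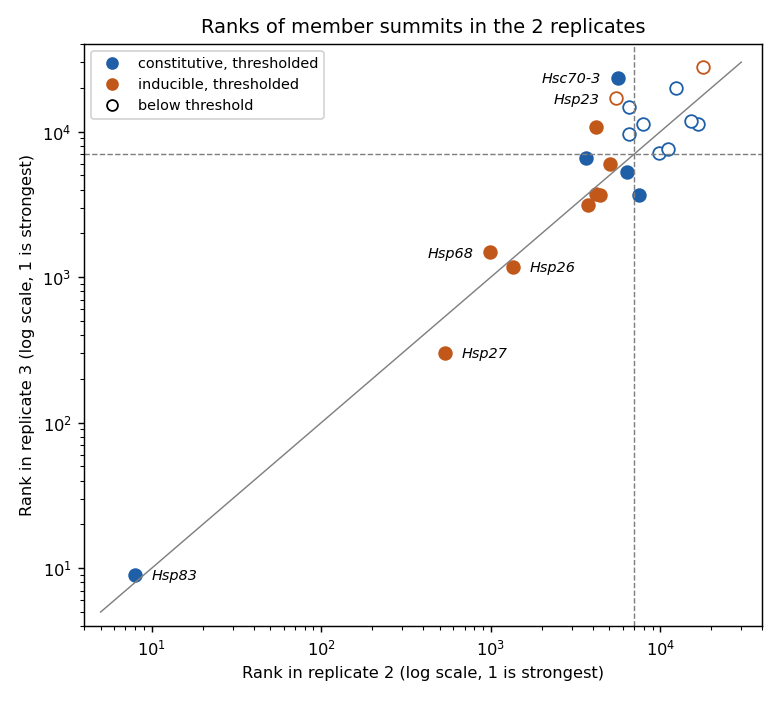
Rank of each member summit in replicate 2 (x axis) and replicate 3 (y axis), both on log axes, for candidates with a summit within 200 bp in both replicates. Blue points are summits of constitutive genes and orange points those of inducible genes. Filled points are thresholded, open points are not, the dashed lines mark rank 7025 and the diagonal marks equal rank. Hsp83 (8 and 9), Hsp27 (540 and 302), Hsp26 and Hsp68 lie near the diagonal, whereas Hsp23 and the distal Hsc70-3 summit lie well above it.

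Heat shock elements were present at a minority of the member summits. Of the 13 thresholded summits, 4 (30.8%) had a match within 100 bp, against 8.73% of all thresholded summits and 10.8% of windows of the same length 600 bp to either side of them. These 4 were the strong Hsp83 summit, both Hsp26 summits and the Hsp68 promoter summit, or 1 of 5 constitutive and 3 of 8 inducible summits. Below the threshold, 6 of 19 member candidates had a match. No share over all candidates below the threshold is given here, for this form or the stricter one that follows. A stricter form, 3 alternating units, was found at 1 of the 13 thresholded summits, that of the Hsp68 promoter, against 0.242% of all thresholded summits, and at 1 of the 19 candidates below the threshold, the one at 15243731 in Hsc70-4. At the Hsp27 summit the nearest element was centred 174.5 bp upstream, outside the window. With 250 bp on each side 9 of the 13 had a match, against 22.1% of all thresholded summits.

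Around the starts themselves, from 250 bases before to 50 after, 8 of 10 members had a heat shock element at some start, against 18.9% of all genes. The members without one were Hsf and Hsp27. Of the members with an element at a start, Hsp23 had no thresholded summit, while Hsp27 had the strongest inducible peak and no element in that window. Presence of the element and of a thresholded summit therefore did not coincide in every member.

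**Figure D5:**
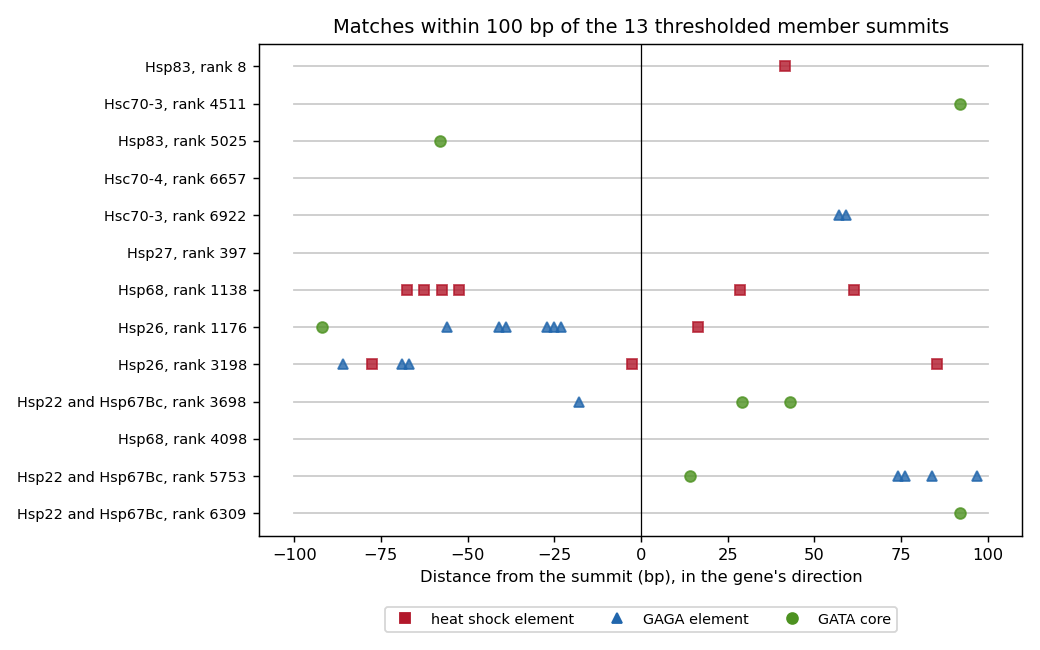
Matches within 100 bp of each of the 13 thresholded member summits, by distance from the summit in bp in the direction of the gene (of Hsp22 where it is shared with Hsp67Bc), with constitutive genes above inducible genes and the pooled rank beside each name. Red squares are heat shock elements, blue triangles GAGA elements and green circles GATA cores. Hsp68 has 6 red squares, and Hsp27, Hsc70-4 and the weaker Hsp68 summit have no mark.

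The GAGA element, bound by GAGA factor, which keeps heat shock promoters open in flies, had a match near 5 of 13 summits (38.5%) in the same windows, against 30.6% of all thresholded summits. GATAA or its reverse complement, a GATA core, was at 6 of 13 (46.2%), against 53.0%, and CGATA or its reverse complement at 4 of 13 (30.8%), against 38.0%. TATAAA or its reverse complement was at 6 of 13 (46.2%), against 24.8%. A TATA box at its usual place was searched after the values had been seen, as TATAAA on the gene's strand centred 20 to 35 bp upstream of a start. It was present at a start of 8 of 10 members, 2 of 4 constitutive and 6 of 6 inducible, against 7.04% of all genes and 8.49% of protein-coding genes. Hsf and Hsc70-3 had none.

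Measured from the start that has the TATA box, the strongest summits of 4 of the 8 members with such a box lay 62 to 160 bp upstream. This range was read from these 4 members themselves and was not tested. The distance was 62 bp at Hsp26, 106 bp at Hsp83, 111 bp at Hsp68 and 160 bp at Hsp27, and the Hsp23 candidate below the threshold lay 99 bp upstream. At Hsp22 the strongest summit lay 1207 bp and the nearest thresholded one 409 bp upstream of the start with the TATA box. The strongest summit lay 293 bp upstream at Hsp67Bc and 72 bp downstream at Hsc70-4.

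Among other chaperone genes, listed by family, 22 of 50 with a match in the annotation (44%) were bound at a start by the 500 bp rule, beside the 25.6% of all genes given above. The 50 include lncRNA:Hsromega, which encodes no chaperone, and the 6 inducible Hsp70 genes, whose lack of candidates is taken up below. The strongest of the 22 was at lncRNA:Hsromega, a noncoding RNA gene that is strongly induced by heat, with a signal of 754, rank 269 and its summit 143 bp downstream of the start. Next came Hsc70-5, the mitochondrial Hsp70 (signal 652, rank 408), then mrj (signal 546, rank 635) and DnaJ-1 (signal 516, rank 728), which encode J-domain cochaperones of Hsp70, and Hsp110, an Hsp70 relative (signal 335, rank 1982). By family, 8 of 10 genes of J-domain proteins, 5 of 10 of the Hsp90 family and its cochaperones, 3 of 8 of the CCT chaperonin and 1 of 4 of the Hsp60 chaperonin were bound. Of 5 other small heat shock genes (l(2)efl, CG4461, CG7409, CG13133 and CG14207), the family of most inducible members, only CG14207 was bound (20%), as were 2 of 4 other Hsp70 family genes and, of Hsp67Ba and CG4456 in the cluster, CG4456.

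The inducible Hsp70 genes themselves had no candidate. None of Hsp70Aa, Hsp70Ab, Hsp70Ba, Hsp70Bb, Hsp70Bbb and Hsp70Bc had any of the 30000 pooled summits in the gene body or within 2 kb of a start. These 6 genes are near-identical copies, to which many short reads cannot be assigned uniquely, and how the authors treated such reads is not given in the sources used here. Their part in this result was not tested, so the lists do not show whether these promoters were bound.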

How the data were processed

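Chromatin immunoprecipitation libraries of embryos carrying GFP-tagged CG34376 were analysed from the peak lists the authors deposited on build dm6. Per the file listings deposited with them, the lists of replicates 2 and 3 and the pool were made against 1 control alignment, and thresholding followed an irreproducible discovery rate procedure (optimal set). Which aligner and caller were run is not given in the sources used here. The deposited signal was used within a list only, and the deposited −log10 q value was not used to select peaks. Depth is not used here, so counting intervals are not given.

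Genes and starts were taken from Ensembl release 115 (BDGP6.54) without transposable elements, and bases from Release 6 of the genome in RefSeq, the same assembly as dm6. A summit within 500 bp of any start was called promoter, and other summits were classed by UTR, coding exon, intron and intergenic, in that order. A pooled summit was matched to the nearest summit of a replicate within 200 bp. For each replicate alone, the 7025 highest candidates were used. Matches to motifs were counted on both strands, except for the TATA box, a measure added after values had been seen. Alternatives were either replicate alone, stricter and looser lists, other distances and windows, the whole interval, other groupings of Hsp83 and Hsf, and other forms of the heat shock element; leaving out Hsp83 was added after seeing the data. Assignment of summits and motifs was tested on planted positions. Analyses used Python 3.11.15, numpy 2.4.6 and pandas 2.3.3. The members and lists were chosen with earlier results of these data known. Named were all members, the genes nearest to their thresholded summits, the Hsp70 genes and the 5 other chaperone genes of highest promoter signal; Pcl was named after its value was seen. Of 54 other listed chaperone genes 50 were matched, some through RefSeq synonyms. No sequence of Hsf is printed.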

Additional observations from a re-analysis of the deposited data

How the results depend on the processing

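The counts of members with a thresholded summit, and of summits in their windows, changed more with the threshold than with the other settings. When the 3512 strongest thresholded lines were used, 4 members had a summit in the window, 4 had one within 500 bp of a start, and the windows held 5 summits, against 32 with all pooled candidates. Keeping fewer lines also lowers the share of all genes with a summit. That share is not given here for the 3512 lines, so the fall is not read as particular to the members. With either replicate alone, 8 to 9 members had a highest candidate in the window, 8 to 9 had one within 500 bp, and the windows held 11 to 14 summits. Hsp83 had rank 8 to 9 with a replicate alone. Other distances, the whole interval in place of the summit, and a gene body with 1 kb kept the counts of members between 7 and 9.

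The difference of constitutive minus inducible genes was less stable. The difference of medians of the strongest signal was -141 with all pooled candidates, 1753 with the 3512 strongest lines, where Hsp83 was the only constitutive gene left, and -85.9 to -40.3 with a replicate alone. Signals of a replicate's list and the pooled list are not on 1 scale, and with replicate 2 alone, which gave -40.3, Hsp23 joined the inducible genes with a signal of 105. It was -231 without Hsp83, an alternative chosen after seeing the data. The difference in the share bound within 500 bp of a start was -25 percentage points with the 3512 strongest lines, 8.33 within 200 bp of a start, 16.7 without Hsf, and -25 to -8.33 with a replicate alone. Heat shock elements were at 9 of 13 summits with 250 bp on each side and at 1 with 3 units. No paired analysis was possible because all samples form 1 group. Depth is unknown, so how far it limits the weaker summits cannot be told.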
